A study of Mus musculus with 14 samples.

Results

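The calcium, calcineurin and NFAT genes described here were 10 genes, chosen by symbol: the membrane calcium channel Orai1, the store sensors Stim1 and Stim2, the calcineurin subunits Ppp3ca, Ppp3cb and Ppp3r1, the calcineurin regulator Rcan1, and the transcription factors Nfatc1, Nfatc2 and Nfatc3. They were 10 of 24908 genes tested in the spleen of mice with collagen-induced arthritis (CIA), a model in which chicken collagen type II (CII) in complete Freund's adjuvant (CFA) sets off an immune response against joint collagen. RNA of splenocytes was measured on 14 one-colour Agilent arrays, 7 from wild-type (WT) mice and 7 from Sting gt/gt mice. The WT mice were C57BL/6, and the Sting gt/gt mice carried the golden ticket allele (Tmem173gt) of the DNA-sensing adaptor STING on both chromosomes, made by chemical mutagenesis in the C57BL/6 background. All had received CFA + CII in the skin at 10 to 14 weeks of age, and the spleen was taken 2 weeks later, so there was no array of an animal without immunization among them. The WT mice were purchased and the Sting gt/gt mice came from another laboratory's colony, so genotype and origin cannot be told apart.

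In lymphocytes, an antigen receptor signal empties the calcium store of the endoplasmic reticulum. STIM proteins sense the emptied store and open ORAI channels in the plasma membrane, and the calcium that enters binds calmodulin and switches on the phosphatase calcineurin. Calcineurin removes phosphates from NFAT proteins, which then move into the nucleus and switch on cytokine and activation genes, and RCAN proteins hold calcineurin in check. Most of this cascade works through calcium, phosphate and protein location, so the amount of RNA of its parts is a measure of how much of the machinery can be made and not of how active it was.

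Rcan1 is both a brake on calcineurin and a well known NFAT target, and NFAT is known to act on its inner start site rather than on its first one. The windows of 250 bases before both starts are shown because they make this difference visible in letters (RefSeq, GRCm38.p6, minus strand, 5′ to 3′, ending at the base before the start). Capitals mark the core NFAT motif GGAAA, or TTTCC where it lies on the other strand.
Rcan1 first start, chr16:92466170-92466419: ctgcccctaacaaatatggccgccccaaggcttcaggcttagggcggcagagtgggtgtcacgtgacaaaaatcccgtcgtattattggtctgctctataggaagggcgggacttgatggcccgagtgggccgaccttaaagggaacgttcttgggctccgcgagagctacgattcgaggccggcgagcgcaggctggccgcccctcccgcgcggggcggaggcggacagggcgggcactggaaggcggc
Rcan1 inner start, chr16:92400079-92400328: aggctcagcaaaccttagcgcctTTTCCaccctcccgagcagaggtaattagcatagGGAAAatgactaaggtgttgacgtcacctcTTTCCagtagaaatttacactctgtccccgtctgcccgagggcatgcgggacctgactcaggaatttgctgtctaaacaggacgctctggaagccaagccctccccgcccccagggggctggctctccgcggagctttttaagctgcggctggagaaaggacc
The window of the first start held no copy of these letters, and the window of the inner start held 3, beginning 227, 193 and 163 bases before it. The motif is short, and 55.6% of all 32851 such windows held at least 1 copy, so a match is a description and not a binding site. Among 11 windows of 8 of the 10 genes, 5 held a copy. The table used here lists 2 RefSeq transcripts of Rcan1, and its only probe carries the name of 1 of them.

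Each gene was read on every probe whose accession mapped to it. The 10 genes had 17 probes, of which 16 stood well above background on 7 or more of the 14 arrays and were tested. The probe left out was Nfatc3 probe 2, which was well above background on 0 of the 14 arrays. Nfatc2 probe 2, the dimmest one tested, was well above background on 11 arrays, 6 of WT and 5 of Sting gt/gt, and no probe was saturated. A gene is called by its brightest tested probe, and its other probes are numbered. Levels are log2 processed signal minus the 75th percentile of the same array, so that 0 is the 75th percentile itself, and levels of different probes are not compared. The 75th percentile itself ranged from 562 to 766 signal units over the 14 arrays. The only probe for the mutated gene, Sting1, lay between 2.35 and 2.85 in WT and between 2.45 and 2.77 in Sting gt/gt, with medians of 2.64 and 2.65, and the RNA of a gene with a point mutation does not check the labels. Replicates 1 to 3 of both genotypes were scanned on one day and replicates 4 to 7 on another, and the scan days are described apart as 2 replicate ranges. The WT arrays of replicates 4 to 7 filled 2 slides that held no Sting gt/gt array, so there genotype and slide cannot be told apart. Each group was 7 mice by the study's account, so the p-values rest on the spread between mice, with that between arrays in it. The fit over all 14 arrays had no scan-day term, so its spread also held the shift between scan days. Arrays of the same slide were taken as independent in the main fits.

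Over the 14 arrays, no probe of the 10 genes passed the test of Sting gt/gt against WT. The 16 probes were split evenly, 8 above and 8 below WT, and 0 passed an unadjusted p under 0.05 in limma, where 3.43% of all 31766 tested probes did. After Benjamini-Hochberg adjustment 0 of 16 passed, against 0.00315% of all probes, and every adjusted p of the 16 was 0.999956. The log2 differences of the leading probes ran from -0.10 in Nfatc2 to 0.13 in Ppp3r1, and their 95% intervals lay between -0.45 and 0.40. The median of the 16 probes was 0.01, as was that of all tested probes. Within these intervals a fold change of up to 1.32 upward was not excluded for Ppp3ca, and one down to 0.732 was not for Nfatc2.

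**Figure D1:**
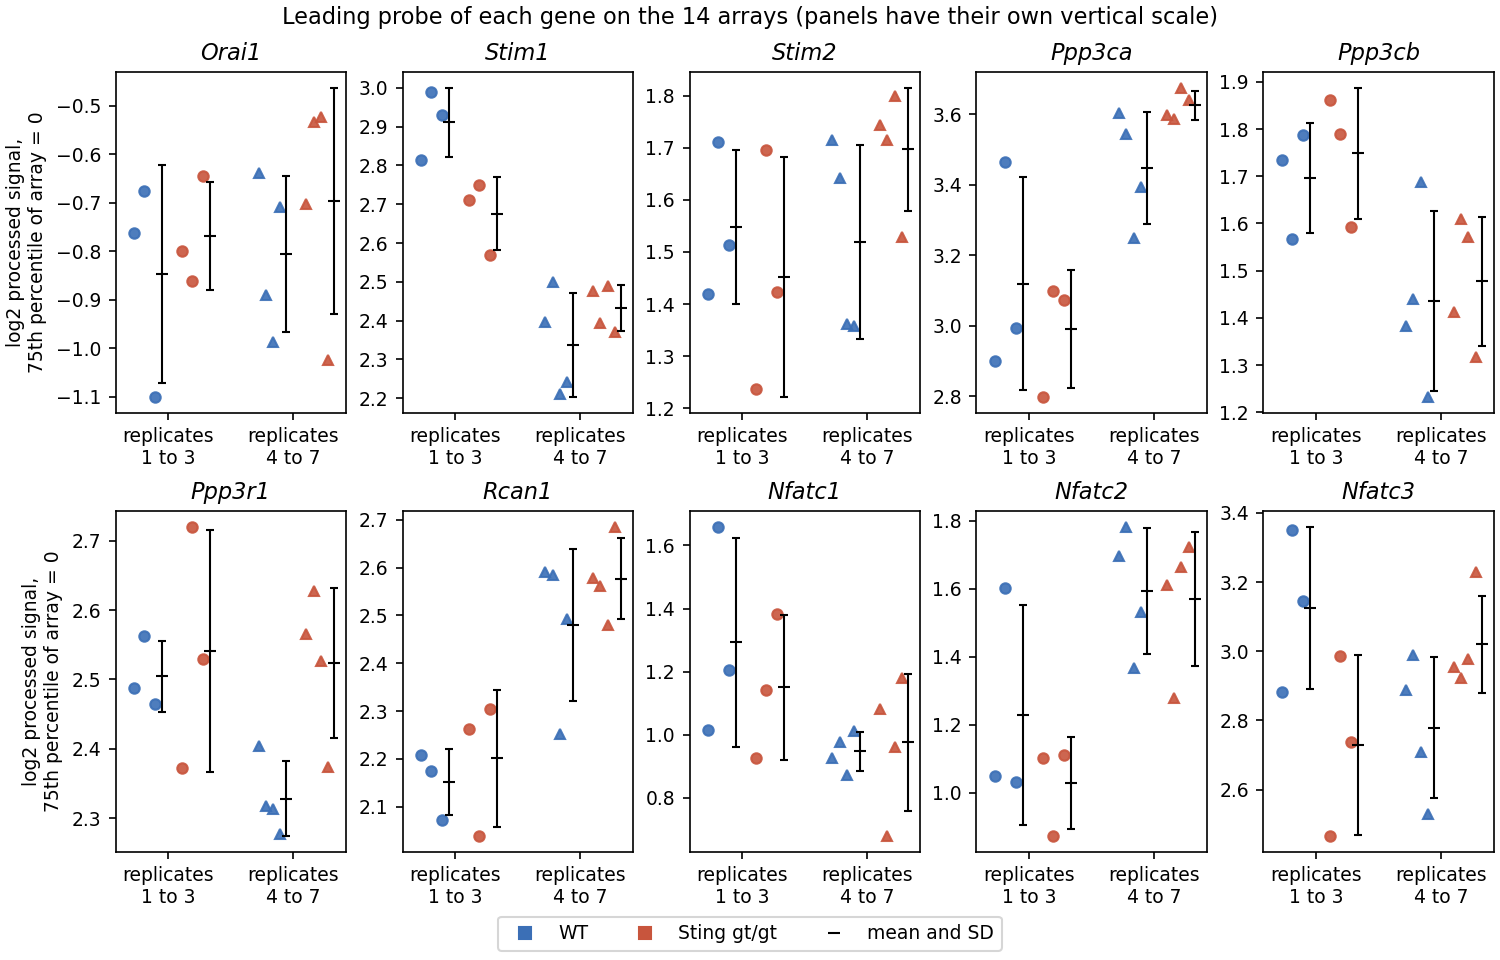
Log2 processed signal of the leading probe of each gene on the 14 arrays (vertical axis, 75th percentile of each array at 0, its own scale per panel), for WT (blue) and Sting gt/gt (red) in replicates 1 to 3 (circles) and 4 to 7 (triangles), with mean and SD beside each group. The genotypes overlap in every panel over all arrays, while Stim1 sits at 2.57 to 2.99 in replicates 1 to 3 and at 2.21 to 2.50 in replicates 4 to 7.

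At the calcium entry step, Orai1, which forms the pore, spanned -1.10 to -0.64 in WT around a median of -0.76, and -1.02 to -0.52 in Sting gt/gt around -0.70. The groups overlapped over most of their range, and the log2 difference was 0.10 (SE 0.11). Stim1, the main store sensor, spanned 2.21 to 2.99 in WT around a median of 2.50, and 2.37 to 2.75 in Sting gt/gt around 2.49. Its log2 difference was -0.05 (SE 0.14), and its other probes were 0.08 higher each. Stim2, the sensor that responds to small losses of store calcium, was 0.06 higher on its leading probe (SE 0.11) and 0.21 lower on probe 2 (SE 0.10). On that second probe WT spanned -2.18 to -1.67 and Sting gt/gt -2.31 to -1.90, which overlapped. It had the lowest p of the 16, with limma p = 0.0652 and an exact permutation p = 0.0390, the latter over 3432 ways of parting the arrays. The probes of Stim2 carry the same accession and did not run the same way, and which transcripts each reads was not tested.

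Calcineurin gave no call either. Ppp3ca, the alpha form of the catalytic subunit, spanned 2.90 to 3.60 in WT around a median of 3.39, and 2.80 to 3.67 in Sting gt/gt around 3.59, with a log2 difference of 0.05 (SE 0.16). Ppp3cb, the beta form, which lymphocytes also use, differed by 0.05 (SE 0.12). Ppp3r1, the regulatory subunit that binds calcium, spanned 2.28 to 2.56 in WT around a median of 2.40, and 2.37 to 2.72 in Sting gt/gt around 2.53. Its log2 difference of 0.13 (SE 0.09) was the largest of the leading probes, with limma p = 0.168 and an exact permutation p = 0.0624, and its second probe was 0.08 lower. Rcan1, the brake and NFAT target, spanned 2.07 to 2.59 in WT around a median of 2.25, and 2.04 to 2.69 in Sting gt/gt around 2.48. Its log2 difference was 0.08 (SE 0.12).

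Of the transcription factors, Nfatc1 spanned 0.87 to 1.66 in WT around a median of 1.01, and 0.68 to 1.38 in Sting gt/gt around 1.08. Its log2 difference was -0.04 (SE 0.14), and that of its probe 2 was -0.22 (SE 0.16). The study lists Nfatc1 protein as up in Sting gt/gt in isolated splenic B cells at a later time. That is another measure, on other cells, than the RNA of splenocytes read here. Nfatc2 spanned 1.03 to 1.78 in WT around a median of 1.53, and 0.87 to 1.72 in Sting gt/gt around 1.28, a log2 difference of -0.10 (SE 0.16). Nfatc3 spanned 2.53 to 3.35 in WT around a median of 2.89, and 2.47 to 3.23 in Sting gt/gt around 2.95, a log2 difference of -0.03 (SE 0.14). The groups overlapped for all of them. The study lists Nfatc3 as down in Sting gt/gt, from these same arrays. In the deposited log2 table, too, 0 of the 16 probes passed an unadjusted p under 0.05 (7.73% of all probes), and Nfatc3 differed by -0.03. With slide as a fixed block, an estimate from the 5 arrays of replicates 1 to 3 that shared a slide with the other genotype, Nfatc3 was -0.44 and Nfatc2 probe 2 was -0.82, and both then passed an unadjusted p under 0.05 (limma, adjusted p = 0.990 for each).

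**Figure D2:**
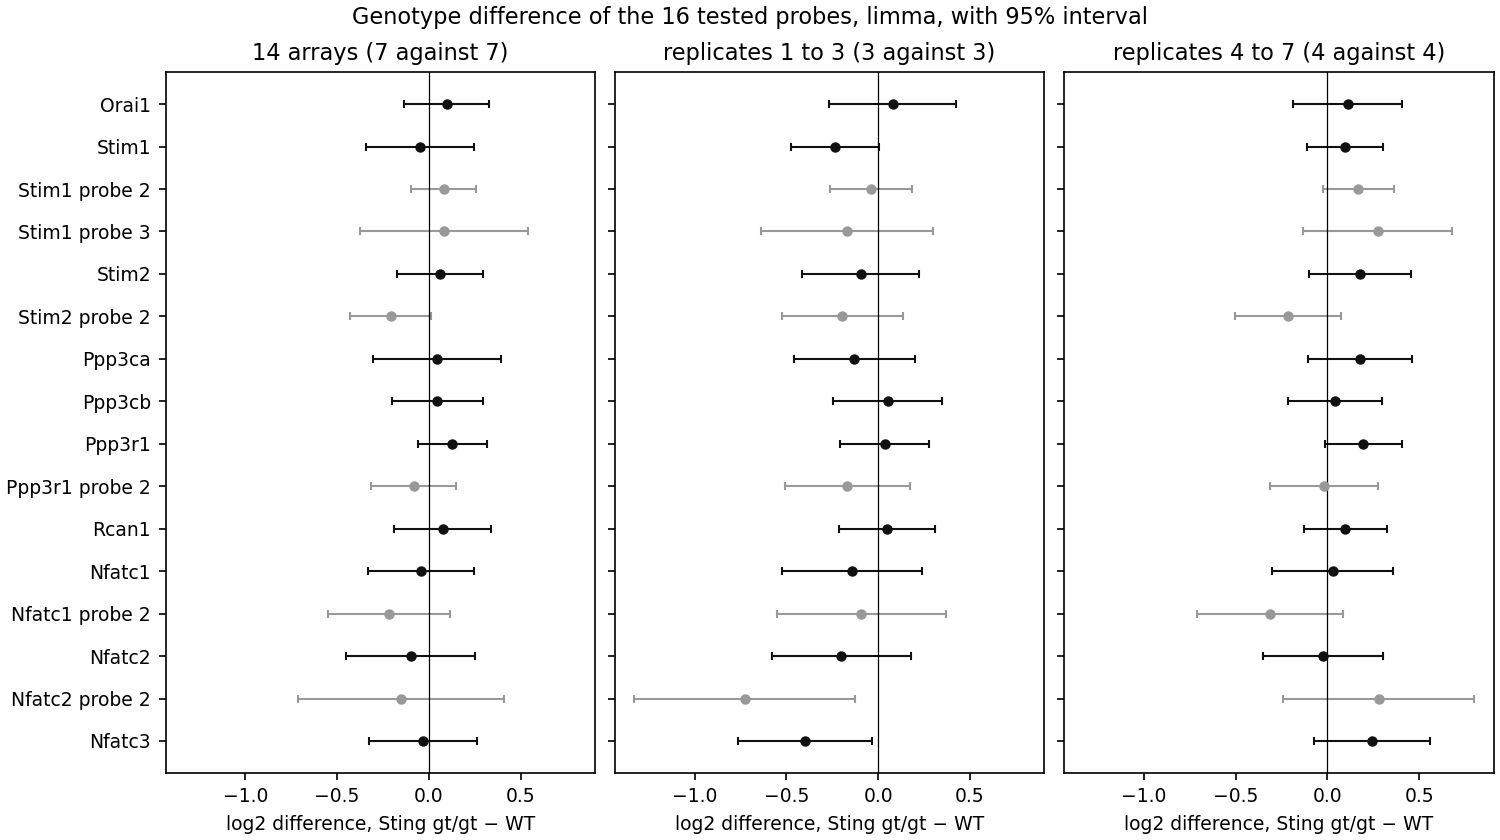
Log2 difference between Sting gt/gt and WT (horizontal axis) with its 95% interval from limma for the 16 tested probes, over all 14 arrays, in replicates 1 to 3 and in replicates 4 to 7, with leading probes in black and further probes in grey. All 16 intervals reach 0 over the 14 arrays, Nfatc3 and Nfatc2 probe 2 lie below 0 in replicates 1 to 3, and no interval leaves 0 in replicates 4 to 7.

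Taken apart, the replicate ranges leaned in opposite directions by count of probes, but not for every gene. On their leading probes Orai1, Ppp3cb, Ppp3r1 and Rcan1 were higher in Sting gt/gt in both ranges, and Nfatc2 was lower in both. Every further probe was lower in replicates 1 to 3, so genes with several probes weigh more in the counts. In replicates 1 to 3, 12 of the 16 probes were lower in Sting gt/gt, with a median of -0.14, while 47.2% of all probes were lower and their median was 0.01. Both probes past an unadjusted p under 0.05 were lower, 2 of 16 against 5.99% of all probes, and 0 passed after adjustment, as for all probes (0%). In replicates 4 to 7, 12 of the 16 were higher, with a median of 0.10 against 0.02 over all probes, of which 52.4% were higher. There 0 of 16 passed an unadjusted p under 0.05, while 21.0% of all probes did, and 0 passed after adjustment against 2.69%. With array weights and an intensity trend, Ppp3r1 was 0.21 higher there and passed (limma, adjusted p = 0.0373). The share of all probes that passed with these weights is not given here. Ppp3r1 probe 2 had unweighted means of -1.34 in WT and -1.36 in Sting gt/gt in that range.

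Nfatc3 showed this turn most plainly among the leading probes. In replicates 1 to 3 its levels were 2.88, 3.35 and 3.14 in WT and 2.47, 2.99 and 2.74 in Sting gt/gt. The WT arrays were higher on average, but their lowest lay below the highest Sting gt/gt array. The levels of replicates 4 to 7 were 2.89, 2.99, 2.71 and 2.53 in WT and 2.95, 2.92, 2.98 and 3.23 in Sting gt/gt, now with Sting gt/gt higher on average and again overlapping. The log2 difference was -0.40 (SE 0.17, limma p = 0.0355) in replicates 1 to 3, where an exact permutation test gave p = 0.2 and cannot go below 0.1. It was 0.24 (SE 0.15, limma p = 0.124) in replicates 4 to 7, where the exact test gave p = 0.143 and cannot go below 0.0286. The difference between both was 0.64 (SE 0.22, limma p = 0.0135, adjusted p = 0.168), with an exact permutation p = 0.0214 within ranges. In the deposited log2 table it was 0.49, with limma p = 0.0602 and an exact permutation p = 0.0743. Without WT replicate 2 or Sting gt/gt replicate 1 the difference in replicates 1 to 3 shrank to -0.28 and -0.26, and without WT replicate 3 or Sting gt/gt replicate 3 it was -0.39 and -0.40. In none of these 4 cases did it pass an unadjusted p under 0.05.

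Nfatc2 probe 2 turned in the same direction at a signal close to background. Its levels in replicates 1 to 3 were -4.03, -3.06 and -3.60 in WT and -4.60, -4.12 and -4.16 in Sting gt/gt, so that every WT array was higher. On replicates 4 to 7 they were -4.74, -4.80, -4.81 and -4.30 in WT and -4.93, -4.57, -4.04 and -3.98 in Sting gt/gt, and the groups overlapped. The log2 difference was -0.73 (SE 0.28, limma p = 0.0211) and 0.28 (SE 0.24, limma p = 0.266), and the difference between the ranges was 1.01 (SE 0.37, limma p = 0.0166, adjusted p = 0.181), with an exact permutation p = 0.0314. The bright probe of Nfatc2 had -0.20 (SE 0.17) and -0.02 (SE 0.15). Without WT replicate 2 the difference of Nfatc2 probe 2 between ranges was 0.76 and no longer passed. In replicates 1 to 3 its difference was -0.48 without WT replicate 2 and -0.58 without Sting gt/gt replicate 1, and passed in neither case. With normexp background correction, the difference between ranges was 0.37 and that in replicates 1 to 3 was -0.24, of which the latter no longer passed.

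Stim1 in Sting gt/gt also moved from lower than WT to higher than WT on average. Its levels in replicates 1 to 3 were 2.81, 2.99 and 2.93 in WT and 2.71, 2.75 and 2.57 in Sting gt/gt, with no overlap. Replicates 4 to 7 gave 2.40, 2.50, 2.21 and 2.24 in WT and 2.48, 2.39, 2.49 and 2.37 in Sting gt/gt, which overlapped. The log2 difference was -0.24 (SE 0.11, limma p = 0.0525) and 0.10 (SE 0.10, limma p = 0.336), and the difference between ranges was 0.33 (SE 0.15, limma p = 0.0410, adjusted p = 0.260; exact permutation p = 0.0214). With the replicate number as a block it was again 0.33, and did not pass (unadjusted p of 0.0829). With 1 array left out it ran from 0.28 to 0.38, and it did not pass without WT replicate 2, 3, 6 or 7 or without Sting gt/gt replicate 3, 4 or 6. Probes 2 and 3 of Stim1 had the same sign, with 0.21 (limma p = 0.157, exact permutation p = 0.0343) and 0.44 (limma p = 0.147).

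In all, 3 of the 16 probes passed an unadjusted p under 0.05 for the difference between ranges. Of all probes, 17.7% passed in either direction and 8.05% upward. For each of the 3 the difference of Sting gt/gt from WT moved up, while the Sting gt/gt mean itself rose only for Nfatc3. After adjustment 0 of 16 passed, against 0.286%. The median of the 16 was 0.17, and 13 were above 0, as were 49.8% of all probes. The deposited log2 table gave 1 of 16, Nfatc2 probe 2 with 1.08 (exact permutation p = 0.0171), against 17.2% of all probes. Against all probes, the count in either direction was close to the background in the scanner signal and below it in the deposited table.

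The level of several genes shifted between the replicate ranges. Comparing replicates 4 to 7 with 1 to 3 with genotype in the model, 7 of 16 probes passed an adjusted p under 0.05 in limma, 3 higher and 4 lower, where 39.0% of all probes passed. Ppp3ca was 0.48 higher (SE 0.11, adjusted p = 0.00270), from a mean of 3.05 ± 0.23 (SD, n = 6) to 3.54 ± 0.14 (SD, n = 8). Nfatc2 was 0.45 higher (SE 0.12, adjusted p = 0.00657) and Rcan1 0.35 higher (SE 0.08, adjusted p = 0.00314). Stim1 fell by 0.41 (SE 0.09, adjusted p = 0.00174), and its levels did not overlap between ranges, since the lowest of replicates 1 to 3 was 2.57 and the highest of replicates 4 to 7 was 2.50. Stim1 probe 3 fell by 0.60, Nfatc2 probe 2 by 0.59 and Ppp3cb by 0.27, the last with adjusted p = 0.0294. The fall of Nfatc2 probe 2 was that of WT, from a mean of -3.56 to -4.66, while Sting gt/gt had -4.29 and -4.38. Stim1 probe 2 was at 0.05 (SE 0.07), unlike the other Stim1 probes. The calls of Ppp3ca, Nfatc2, Rcan1, Stim1 and Stim1 probe 3 held with any 1 array left out. That of Ppp3cb was lost, at -0.26 to -0.23, without WT replicate 1, 3 or 7 or Sting gt/gt replicate 1, 2, 4 or 7. That of Nfatc2 probe 2 was lost without any of the 7 WT arrays or Sting gt/gt replicate 2, 3, 4 or 5, when it ran from -0.63 to -0.42. With each array's median in place of its 75th percentile, 4 of 16 passed, and Ppp3cb fell by 0.11 and Stim1 by 0.25 without passing.

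None of these shifts was in the deposited log2 table, where 0 of 16 probes and 0% of all probes passed an adjusted p under 0.05 in limma, and 0 of 16 probes and 1.33% of all probes an unadjusted one. Ppp3ca was there 0.08 higher, Rcan1 0.02 higher and Stim1 0.01 lower. The shift of Nfatc2, 0.21, was the largest of the 16, with an unadjusted p of 0.0986. The treatment of the table between scan days is not given in the sources used here, and scan day, slide and any other feature of the runs cannot be told apart.

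**Figure D3:**
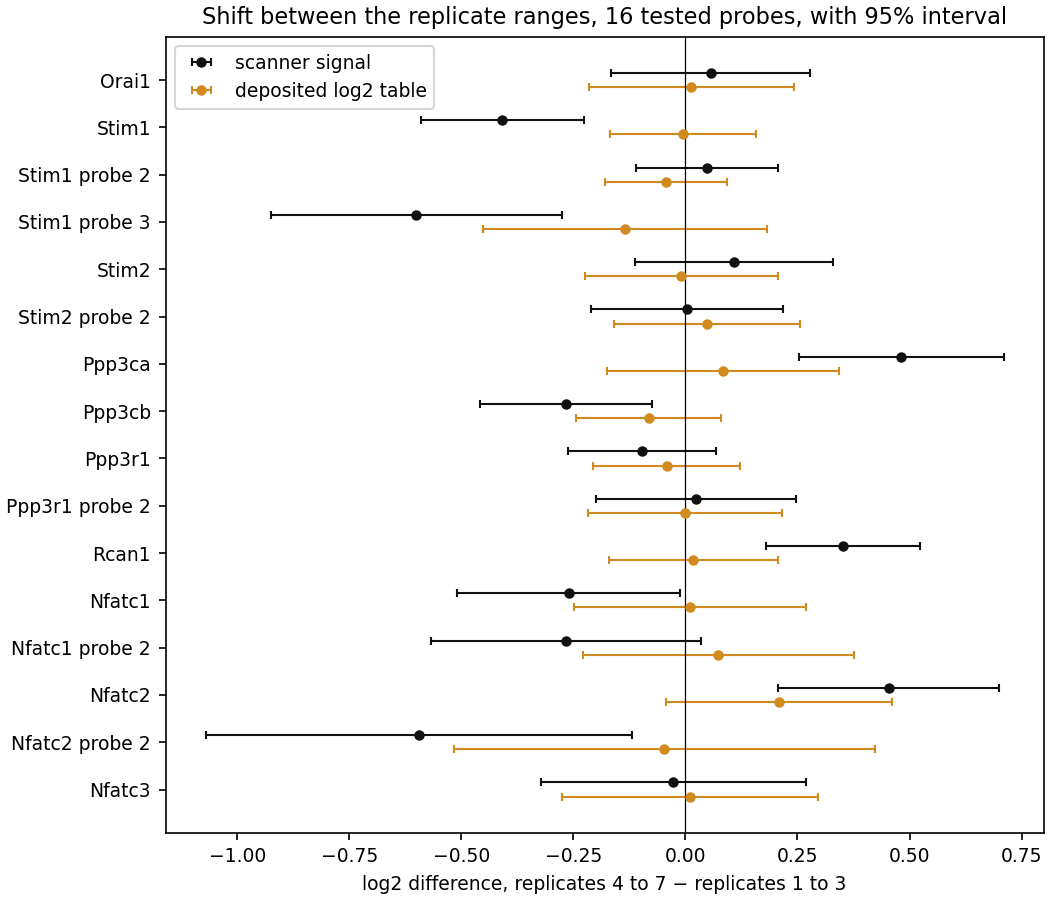
Log2 difference between replicates 4 to 7 and replicates 1 to 3 (horizontal axis) with its 95% interval from limma for the 16 tested probes, from the scanner signal (black) and from the deposited log2 table (orange). In the scanner signal Ppp3ca stands at 0.48 and Stim1 at -0.41, and in the deposited table all 16 intervals include 0.

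Other genes of the pathway were read from 53 genes listed by role, of which 51 were tested, and the cytokine gene Il2 and the ligand gene Cd40lg were too dim. Over the 14 arrays 0 were higher and 1 was lower in Sting gt/gt at an unadjusted p under 0.05, where 3.43% of all probes passed, and the median log2 difference was 0.05. The one was Nr4a2, an activation-induced nuclear receptor gene, which went from -2.39 ± 0.18 in WT to -2.65 ± 0.22 in Sting gt/gt (SD, n = 7). Its log2 difference was -0.26 (SE 0.12, limma p = 0.0466, exact permutation p = 0.0332), and it did not pass after adjustment, nor at an unadjusted p under 0.05 with quantile normalization or median centring. The deposited log2 values gave a call for Il4, a helper T cell cytokine gene, which was 0.35 higher (unadjusted p of 0.0182). They also gave calls for Nr4a2, 0.24 lower (unadjusted p of 0.0354), and for Nfat5, the NFAT relative that responds to osmotic stress rather than to calcineurin, 0.30 lower (unadjusted p of 0.0364). On the scanner signal Il4 was 0.40 higher (exact permutation p = 0.0728) and Nfat5 0.32 lower (exact permutation p = 0.156), without passing.

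By role, no gene passed over the 14 arrays among the 8 of calcium entry, the 9 of store release and pumps, the 4 of calmodulin and calcineurin, the 6 calcineurin inhibitors, anchors and immunophilins, the 2 of the NFAT family and the 6 kinases that send NFAT out of the nucleus. The largest log2 difference was -0.21 (SE 0.22) among calcium entry genes, in the potassium channel gene Kcnn4, which keeps the membrane voltage that draws calcium in. It was 0.12 (SE 0.10) in Calm3, a calmodulin gene, and 0.11 (SE 0.20) in Rcan3, a relative of Rcan1. Among 16 target genes tested, Nr4a2 was the only one to pass.

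The difference between ranges passed an unadjusted p under 0.05 for 8 of the 51 genes, where 17.7% of all probes passed, and for 0 after adjustment. Tox, an NFAT-induced gene of exhausted T cells, had the lowest p, with -0.36 in replicates 1 to 3 and 0.56 in replicates 4 to 7 (limma adjusted p = 0.0901 and exact permutation p = 0.00286 for the difference). Among the kinases, Gsk3b went from -0.31 to 0.12 (exact permutation p = 0.0171) and Dyrk1a from -0.37 to 0.11 (exact permutation p = 0.0757). Itpr1, the channel that releases store calcium, went from -0.19 to 0.23 (exact permutation p = 0.00429). The other four went down. Il4 went from 0.85 to 0.07 (exact permutation p = 0.136) and the cytokine gene Tnf from 0.72 to -0.11 (exact permutation p = 0.0543). The phospholipase gene Plcg1 went from 1.03 to -0.35 (exact permutation p = 0.0471), and Nfat5 from 0.07 to -0.61 (exact permutation p = 0.0243). Within replicates 4 to 7 Nfat5 passed after adjustment on the scanner signal (limma, adjusted p = 0.0482), as did 2.69% of all probes. It did not in the deposited log2 table (limma, adjusted p = 0.0619), and in that range genotype and slide cannot be told apart. Plcg1 was well above background on 11 of the 14 arrays. In the deposited log2 table Tox, Nfat5, Plcg1 and Tnf passed again, and Il4, Gsk3b, Dyrk1a and Itpr1 did not. There Fkbp1a, the immunophilin that binds the calcineurin-blocking drug FK506, passed too, with 0.11 in replicates 1 to 3 and -0.31 in replicates 4 to 7 (unadjusted p of 0.0272). Within replicates 4 to 7 of that table the kinase gene Csnk1e was 0.37 higher (unadjusted p of 0.0405) and Calm3 0.22 higher (unadjusted p of 0.0207). Nfat5, at -0.57 (unadjusted p of 0.00149), and Fkbp1a (unadjusted p of 0.0152) passed there as lower, and 20.4% of all probes passed. Csnk1e and Calm3 also passed in that range on the scanner signal (limma, unadjusted p of 0.0317 and 0.0324), where 21.0% of all probes did. Between the ranges themselves, 18 of the 51 genes were higher and 6 lower in replicates 4 to 7 at an adjusted p under 0.05, against 17.6% of all probes higher and 21.4% lower, with Egr2 (0.79), a transcription factor gene that NFAT induces, Rcan3 (0.70) and Kcnn4 (-0.61) among them.

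**Figure D4:**
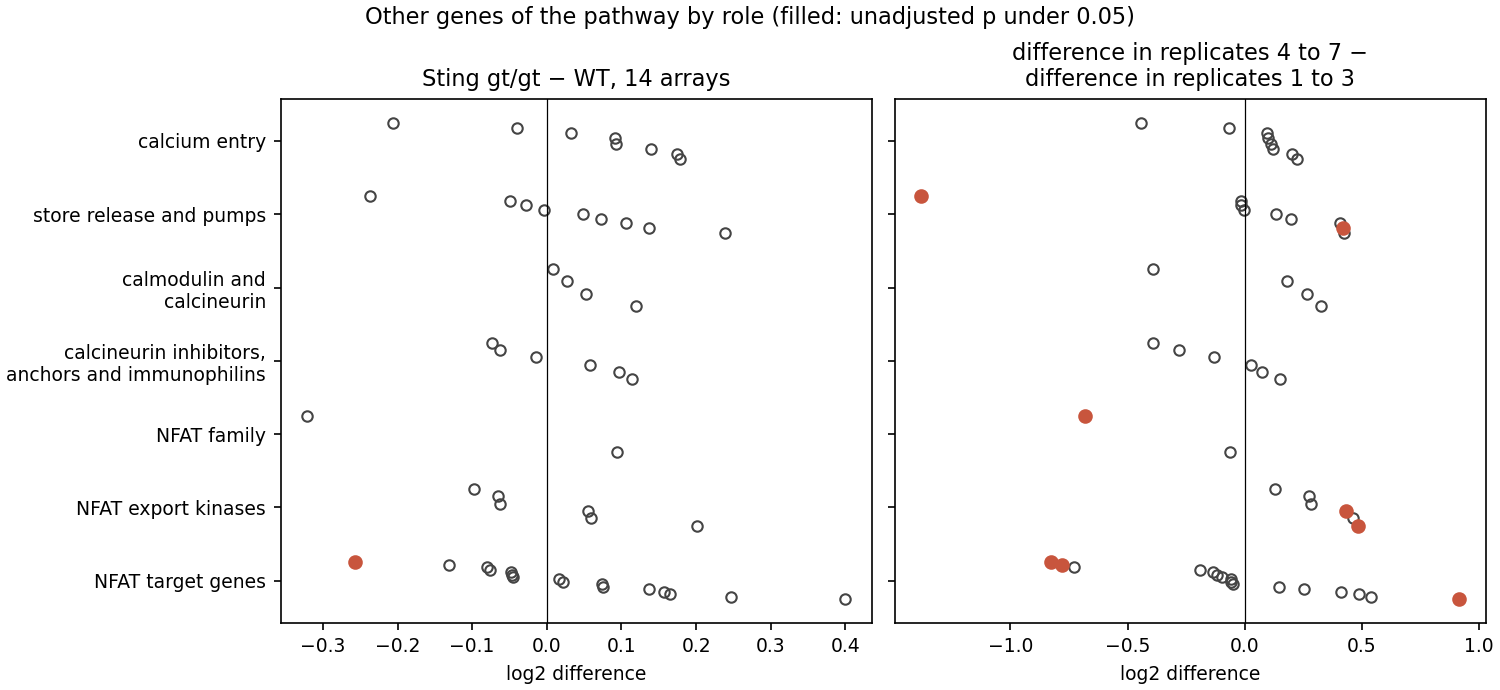
Log2 difference of the 51 other pathway genes (points) by role, between Sting gt/gt and WT over 14 arrays (left) and between the genotype differences of both replicate ranges (right), with genes past an unadjusted p under 0.05 in limma filled. On the left the only filled point is Nr4a2 at -0.26, and on the right 8 points are filled, from Plcg1 at -1.38 to Tox at 0.92.

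Because T cells and B cells both use this cascade, marker genes were read beside it, and in bulk RNA fewer cells of a type and less RNA per cell cannot be told apart. All 8 T cell markers were well above background on every array, and their summed linear signal was 24.3 to 37.0 in WT and 27.0 to 35.6 in Sting gt/gt, in units of the array's 75th percentile, so the groups overlapped. All 7 B cell markers were well above background on every array too. In replicates 1 to 3 their sum was 75.2 to 90.8 in WT and 81.8 to 120 in Sting gt/gt, with a median log2 difference of 0.29 over the markers. Across replicates 4 to 7 it was 95.8 to 138 in WT and 76.4 to 91.0 in Sting gt/gt, with no overlap and a median of -0.49. The median of the B cell markers thus changed sign between the ranges, opposite to Nfatc3 and Stim1. Medians of the T cell markers (0.12 and -0.04) and of the megakaryocyte and platelet markers (-0.08 and 0.10) changed sign too. For no marker list was the difference between ranges tested. In replicates 4 to 7 the 5 plasma cell markers summed higher in every Sting gt/gt array (111 to 154) than in any WT array (81.3 to 106). In replicates 1 to 3 they summed lower in every one (68.8 to 78.2, against 81.4 to 86.4). The 6 immediate early genes, 5 of them well above background on every array, summed higher in every Sting gt/gt array of replicates 4 to 7 (22.8 to 25.5, against 16.3 to 21.6), with a median log2 difference of 0.19. Their sums overlapped in replicates 1 to 3 (15.4 to 19.9, against 17.0 to 26.8 in WT), with a median of -0.16. Their median thus changed sign in the same direction as Nfatc3 and Stim1, which was not tested. Of the B cell, plasma cell and immediate early lists, 0 markers passed an unadjusted p under 0.05 over the 14 arrays, where 3.43% of all probes did. The share of all probes without overlap between genotypes within a range is not given here. In replicates 4 to 7 genotype and slide cannot be told apart. Between the ranges, the 5 dendritic cell markers summed to between 144 and 182 in replicates 1 to 3 and between 35.3 and 49.98 in replicates 4 to 7 (1 marker passed as lower and 1 as higher), with both genotypes together. The 7 erythroid markers summed to between 878 and 1163 and between 610 and 763. Between genotypes over the 14 arrays, 2 of them passed an unadjusted p under 0.05, where 3.43% of all probes did, and 1 of the 7 was higher in Sting gt/gt. The median log2 difference of the erythroid markers was -0.21 in replicates 1 to 3 and -0.38 in replicates 4 to 7. The 6 tested neutrophil markers summed to between 1150 and 1712 and between 659 and 1117. The part of these markers in the values of the 10 genes was not tested.

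As a description of what runs with Nfatc3, whose place on the study's own list of changed genes rests on these arrays, the 3 genes with the highest Pearson correlation over the 14 arrays were Dicer1 (0.976), which cuts small RNAs from their precursors, Cep120 (0.968), a centriole gene, and Tbl1x (0.965), a part of a corepressor complex. After the mean of each genotype and range was removed they were Cep120 (0.985), Dicer1 (0.965) and Rc3h2 (0.958), a relative of roquin. These points share arrays and scaling. Among the 45 pairs of the 10 genes, the correlation over the 14 arrays ran from -0.81 for Nfatc2 with Ppp3cb to 0.86 for Nfatc2 with Ppp3ca. With those means removed it ran from -0.72 for Nfatc1 with Ppp3cb to 0.82 for Ppp3r1 with Stim2. The genes of the cascade therefore did not vary as 1 block across the arrays.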

How the data were processed

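Per the labels, Agilent Feature Extraction (version 11.0.1.1) gave the scanner intensity values that the authors deposited, which are corrected for background and not scaled between arrays, and they also deposited a table of log2 values whose normalization is not given in the sources used here. From the scanner files, log2 processed signal minus each array's 75th percentile was computed here, outlier spots were left out and spots of a probe averaged. The 31766 probes that stood well above background on 7 or more of 14 arrays were tested. Probes were named by accession through RefSeq, and 32994 of 56605 (58.3%) had a symbol. Tests used limma 3.58.1 in R 4.3.3, with Benjamini-Hochberg adjustment over all tested probes, and two-sided exact permutation tests over arrays (20, 70 and 3432 ways, and 1400 within ranges). Scripts were tested on simulated data, and figures used matplotlib 3.10.9. The number of arrays limits the precision.

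Named were all 10 genes with every probe, other pathway genes past an unadjusted p under 0.05 in any of the genotype, between-range or deposited-table fits or with the largest difference of a role without one over the 14 arrays or between ranges, and the 3 genes most like Nfatc3. Genes with the largest difference are named for 3 roles. Egr2, Rcan3 and Kcnn4 were named for their shift after values were seen. The genes, lists and tests were chosen with earlier results of these data known. The alternatives covered scaling, background correction, filters, flags, probes, tests, weights, blocks and each array left out. Deviations of same-numbered arrays of both genotypes correlated at 0.15 to 0.52. The main fits and the permutation tests took no pairs, and the replicate number was a block only in an alternative fit. With scan-day means removed the correlations were -0.40 to 0.28, so the likeness of same-numbered arrays comes with the scan day.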

Additional observations from a re-analysis of the deposited data

Results flagged for a closer look

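Among 40 groups of leading-probe values, 1 held an array apart from the rest, Nfatc1 in WT, where replicate 2 stood at 1.66 above 6 others of at most 1.20. Chance alone sets such an array apart in about 1 of 20 groups.

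The genotype difference moved between the replicate ranges by an exact permutation test for 4 of 16 probes, without adjustment for the 16. The exact test was not run over all probes, so this count has no background to set it against. In limma it was 3 of 16, where 17.7% of all probes passed in limma. Nfatc3 differed by 0.64, Nfatc2 probe 2 by 1.01, Stim1 by 0.33 and Stim1 probe 2 by 0.21. In each, the Sting gt/gt mean went from below to above the WT mean of the same range. In replicates 4 to 7 genotype and slide cannot be told apart.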

How the results depend on the processing

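The call of 0 of 16 probes over the 14 arrays held under quantile normalization, median centring, no scaling, normexp, the deposited table, outlier spots kept, a filter on all 14 arrays, 1 probe per gene, scan day as a term, slide as a random block, the replicate block and an exact Mann-Whitney test. It was 1 without the filter on dim probes (Nfatc3 probe 2) and by the methods' t-test (Stim2 probe 2), 2 with array weights and an intensity trend (Nfatc1 probe 2, Ppp3r1) and 2 with slide as a fixed block. In replicates 1 to 3 the count was 3 with median centring, 1 with quantile normalization, the deposited table and the filter on all 14 arrays, and 0 with array weights. In replicates 4 to 7 it was 1 with median centring, normexp and no filter, and 3 with array weights, when Ppp3r1 also passed an adjusted p under 0.05. For the difference between ranges it was 4 with median centring (Ppp3ca added), 1 with quantile normalization, the deposited table and array weights, 2 without scaling and without the filter (Stim1 lost), 2 with the filter on all 14 arrays and 1 probe per gene, in which Nfatc2 probe 2 was not tested, and 2 with the replicate block, in which Stim1 lost its call and no other call changed. For the shift between ranges it was 4 with median centring and 0 in the deposited table. Of the other pathway genes, 3 passed in the deposited table and with scan day as a term, and 0 with quantile normalization and median centring.

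Leaving out 1 array gave 0 to 1 probes over the 14 arrays (1 was Stim2 probe 2, without WT replicate 3, WT replicate 6 or Sting gt/gt replicate 6), 0 to 3 in replicates 1 to 3 (0 without WT replicate 2 or Sting gt/gt replicate 1), 0 to 2 in replicates 4 to 7 (2 without Sting gt/gt replicate 7) and 1 to 3 for the difference between ranges (1 without WT replicate 2).

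Small genotype differences changed sign. With array weights Nfatc1 was 0.017, Nfatc3 0.065 and Stim1 0.018. Without scaling Ppp3ca was -0.0080 and Ppp3cb -0.0076. With slide as a random block Ppp3ca was -0.094 and Stim2 -0.026, and with slide as a fixed block -0.17 and -0.11. With 1 array left out they ran from -0.10 to 0.049 for Nfatc1, -0.098 to 0.040 for Nfatc3, -0.022 to 0.14 for Ppp3ca, -0.0063 to 0.092 for Ppp3cb and -0.11 to 0.022 for Stim1. The cause of these changes was not tested. Probes near background, such as Nfatc2 probe 2, are limited by signal, and its difference between ranges was 0.37 under normexp.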

Other observations

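The dim Nfatc3 probe 2, not well above background on any array, ran from -7.00 to -5.90 in WT and from -7.30 to -6.68 in Sting gt/gt. It was not among the tested probes of the main fits. WT replicate 2 was the highest WT array of replicates 1 to 3 for Nfatc1 (1.66), Nfatc2 (1.60), Nfatc3 (3.35), Ppp3ca (3.46) and Stim1 (2.99), and the lowest for Ppp3cb (1.57).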
